A study of Caenorhabditis elegans with 22 samples.

Results

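The comparison set whole worms labelled as given 2-deoxyglucose at 5 days of age against worms of the same label at 1 day of age, and asked which microRNA hairpins differ between these ages. It covered 6 small RNA libraries of the 22 in the series, 3 per age, and the 130 of 250 hairpins that had at least 10 counts in at least 3 of the 6. All worms were hermaphrodites of the wild-type strain N2, and 2-deoxyglucose, a glucose analogue that blocks glycolysis, is named in the sample labels without a dose. The age differences are differences within worms of a single label, and age cannot be told apart from time on the compound. The series title names DMSO, a common solvent, where the sample labels name 2-deoxyglucose. The labels are followed here; if the title were right, these worms would have had solvent alone, the age differences would not include time on 2-deoxyglucose, and each difference from rotenone worms would be one from solvent. No group labelled as untreated or given solvent alone was analysed here. The labels give neither the stage at which the count of days begins nor the number of worms per library. Nor do they describe the 3 libraries of an age as independent cultures; the p-values therefore reflect library-to-library spread, which may be technical. The remaining libraries are from 2-deoxyglucose worms at 10 and 20 days and from worms given rotenone (0.039441 µg/ml), an inhibitor of mitochondrial complex I, at 1, 5, 10 and 20 days.

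MicroRNAs are cut from hairpin precursors and, loaded on Argonaute proteins, pair through their seed with messenger RNAs and repress them. In Caenorhabditis elegans they are known first for the heterochronic pathway, in which lin-4 and let-7 time the larval stages, and several also alter adult lifespan, among them mir-71, mir-34, mir-80, mir-238 and mir-239. Others mark a tissue or a stage, such as the mir-35 family in oocytes and embryos, mir-1 in muscle and lsy-6 in a single taste neuron. Each hairpin here has 1 count that sums its arms, so changes in a single mature arm could not be seen.

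Total counts lay between 948172 and 2048794 at day 1 and between 664900 and 1166234 at day 5, the lowest being library 2 of day 5. Values below are CPM, counts brought to a common library size of 1000000 after scaling by TMM, a method that assumes most hairpins keep their proportion. On this scale 1 count was worth 0.461 to 0.909 CPM at day 1 and 0.868 to 1.65 CPM at day 5. No pair of libraries within a group agreed within counting noise: chi-square per degree of freedom was lowest for libraries 2 and 3 of day 1, at 12.1, and highest for libraries 1 and 2 of day 5, at 319. The first principal component of the 130 hairpins held 74.9% of the variance and separated the ages: day 1 libraries scored between -5.01 and -4.23, those of day 5 between 4.21 and 5.15. The second, with 13.8%, spread the day 5 libraries from -3.51 in library 1 to 3.09 in library 2.

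By day 5, 30 of the 130 hairpins had risen and 30 had fallen, and 70 did not pass the test (edgeR quasi-likelihood F test, Benjamini-Hochberg adjusted p below 0.05). Among all 141 hairpins fitted the test called 44.7%, or 22.7% higher and 22% lower, beside 46.2% of the 130. The fold changes were modest: 8 of the 30 rises and 16 of the 30 falls reached a log2 change of 1 in size, and the median size of a called change was 0.73. CPM ranges of the groups did not overlap for 54 of the 60 called hairpins and for 10 of the 70 others, against 47.5% of all hairpins fitted. The 70 hairpins that did not pass had log2 changes from -1.09 to 0.63. The median change over the 130 was -0.023 and over all hairpins fitted 0.015.

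The balance of rises and falls depended on the scaling. With libraries scaled by their total counts 16 had risen and 45 had fallen, and the median change of the 130 lay 0.24 lower on the log2 scale; with the 5 most abundant hairpins and the mir-35 family kept out of the TMM step 38 had risen and 24 had fallen, and the median lay 0.16 higher. The calls were 31 and 29 with DESeq2 size factors. Of the 30 rises 16 kept their call under all 3 other scalings, and of the 30 falls 24 did. Without day 1 library 2 the rises numbered 15, and without day 1 library 3 they numbered 16, where the median change moved by -0.10 and -0.11. Across all 15 alternatives (the other scalings, filters, tests and models, and each of the 6 libraries left out in turn) 12 rises and 22 falls kept their call. A single lane held libraries of both ages, day 1 library 3 and day 5 library 1, too few for a test within a lane. In a fit of all 22 libraries with lane as a factor 33 hairpins had risen and 31 had fallen, and 27 of the 30 rises and 28 of the 30 falls kept their call.

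**Figure D1:**
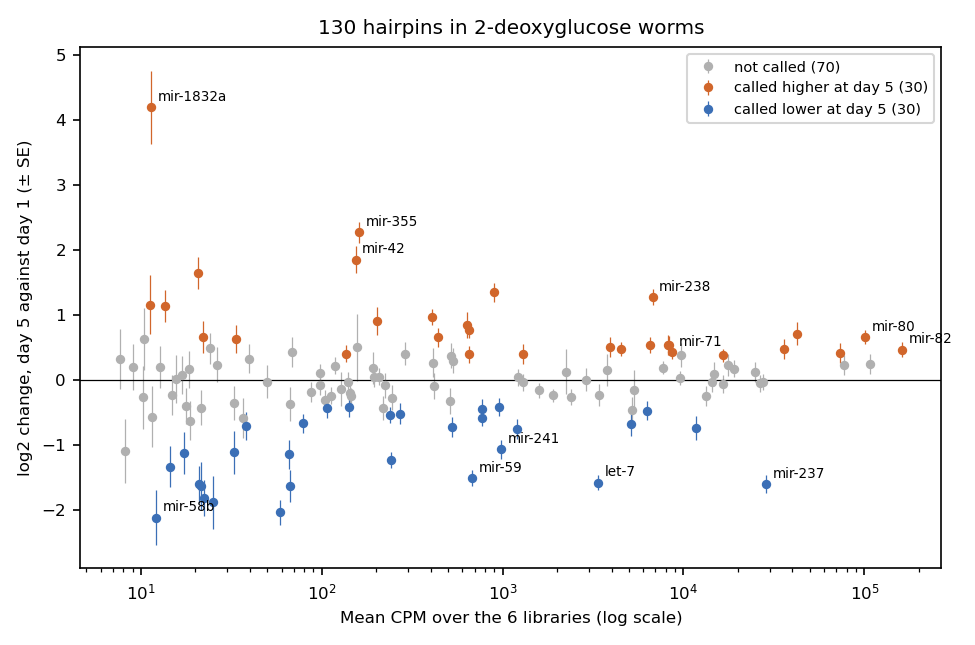
The log2 change from day 1 to day 5 with its standard error (vertical axis) is plotted against the mean CPM over the 6 libraries on a log scale (horizontal axis) for the 130 hairpins. The 30 called rises and 30 called falls lie at every abundance, the falls of let-7 and mir-237 standing apart among abundant hairpins and mir-1832a above all others.

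let-7, mir-237 and lin-4, hairpins of the developmental timing families, all fell. let-7, which promotes the passage from larva to adult, stood at 5809.9, 4547 and 4789 CPM at day 1 and 1445, 1819 and 1806 CPM at day 5. Its libraries at the 2 ages were far apart, a log2 change of -1.58 ± 0.12 (± SE, as for all log2 changes below; edgeR adjusted p = 4.45e-10). mir-237, a relative of the timing microRNA lin-4, held 41509, 45818 and 42336 CPM at day 1 and 16599, 13598 and 12536 CPM at day 5, and changed by -1.60 ± 0.14 (edgeR adjusted p = 1.63e-09). lin-4 itself, which acts through lin-14 in the first larval stage, held 999, 817 and 837 CPM at day 1 and 662, 680.0 and 611 CPM at day 5. Its groups did not overlap, but the fall was smaller, -0.44 ± 0.15, and lost its call without day 1 library 1 (-0.35) or day 5 library 3 (-0.40). It was also lost with the TMM step free of the most abundant hairpins (-0.28) and without a filter on low counts (-0.38).

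The let-7 relatives did not move together. Of the 7 let-7 family hairpins 2 rose, 3 fell and 2 did not pass, with a median change of -0.27. Among all hairpins fitted the shares were 22.7% higher and 22% lower. mir-241, which acts with mir-48 and mir-84 on hbl-1 in the larva, held 1168, 1441 and 1375 CPM at day 1 and 602, 670.1 and 629 CPM at day 5, and changed by -1.07 ± 0.15 (edgeR adjusted p = 3.34e-06). mir-48, whose hairpin lies 1678 bases from mir-241 on the same strand of chromosome V, held 14441, 14407 and 14346 CPM at day 1 and 17844, 19761 and 18654 CPM at day 5. It rose by 0.38 ± 0.10 (edgeR adjusted p = 0.00455), with all day 5 libraries above all day 1 libraries. mir-84 also rose, by 0.51 ± 0.15, from 3065, 3331 and 3311 CPM to 4411, 4395 and 5001 CPM. The scarcer mir-795 fell by 0.43 on the log2 scale, and mir-793 and mir-794 did not pass. With total-count scaling the rises of mir-48 (0.13) and mir-84 (0.26) were not called. The call of mir-48 was lost without day 1 library 2 (0.28) or 3 (0.30), and that of mir-795 with lane as a factor (-0.33) and without day 1 library 1 (-0.41) or day 5 library 1 (-0.35).

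Of 9 listed hairpins linked to lifespan, 6 rose, lin-4 fell, and mir-228 and mir-246 did not pass, with a median change of 0.67. Over all hairpins fitted 22.7% were called higher and 22% lower. The 6 rises are not independent in kind, since mir-238, mir-239a and mir-239b belong to a single family. Over the same interval in rotenone worms 7 of the 9 rose and 1 fell, with a median of 0.71. mir-238, whose loss shortens life, held 4183, 3801 and 3816 CPM at day 1 and 9095, 10190.3 and 9426 CPM at day 5, a change of 1.28 ± 0.12 (edgeR adjusted p = 1.35e-08). Its relative mir-239a, whose deletion together with mir-239b lengthens life, held 549, 449 and 518 CPM at day 1 and 1301, 1176 and 1408 CPM at day 5, a change of 1.36 ± 0.15 (edgeR adjusted p = 7.87e-08). mir-239b, 1045 bases from mir-239a on the opposite strand of the X chromosome, rose less, by 0.84 ± 0.20, from 431, 482 and 456 CPM to 902, 639 and 909 CPM. In all 3 hairpins every day 5 library lay above every day 1 library, and the rises kept their call in all 15 alternatives.

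mir-34, the worm member of a family that responds to DNA damage in mammals, rose from 569.8, 429.9 and 441 CPM to 701, 889 and 884 CPM, by 0.78 ± 0.13 (edgeR adjusted p = 3.21e-05). mir-71, a lifespan-promoting microRNA active in neurons, held 7424, 7492 and 7262 CPM at day 1 and 10210.1, 9675 and 9936 CPM at day 5. The spread within each age was small and the ages did not overlap, but the change was slight, 0.43 ± 0.11, and the call was lost with total counts (0.18) and without day 1 library 2 (0.33) or 3 (0.34). mir-80, whose loss mimics dietary restriction, held 79999, 77488 and 77180.2 CPM at day 1 and 106132, 131273 and 134942 CPM at day 5, and rose by 0.67 ± 0.11 (edgeR adjusted p = 2.69e-05) in all 15 alternatives. mir-246, whose level in single worms predicts how long they live, stood at 0.029 ± 0.11 and mir-228, found in glia, at 0.24 ± 0.15; total-count scaling turned both below 0 (-0.22 and -0.0043). mir-228 was called higher with the TMM step free of the most abundant hairpins (0.38).

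**Figure D2:**
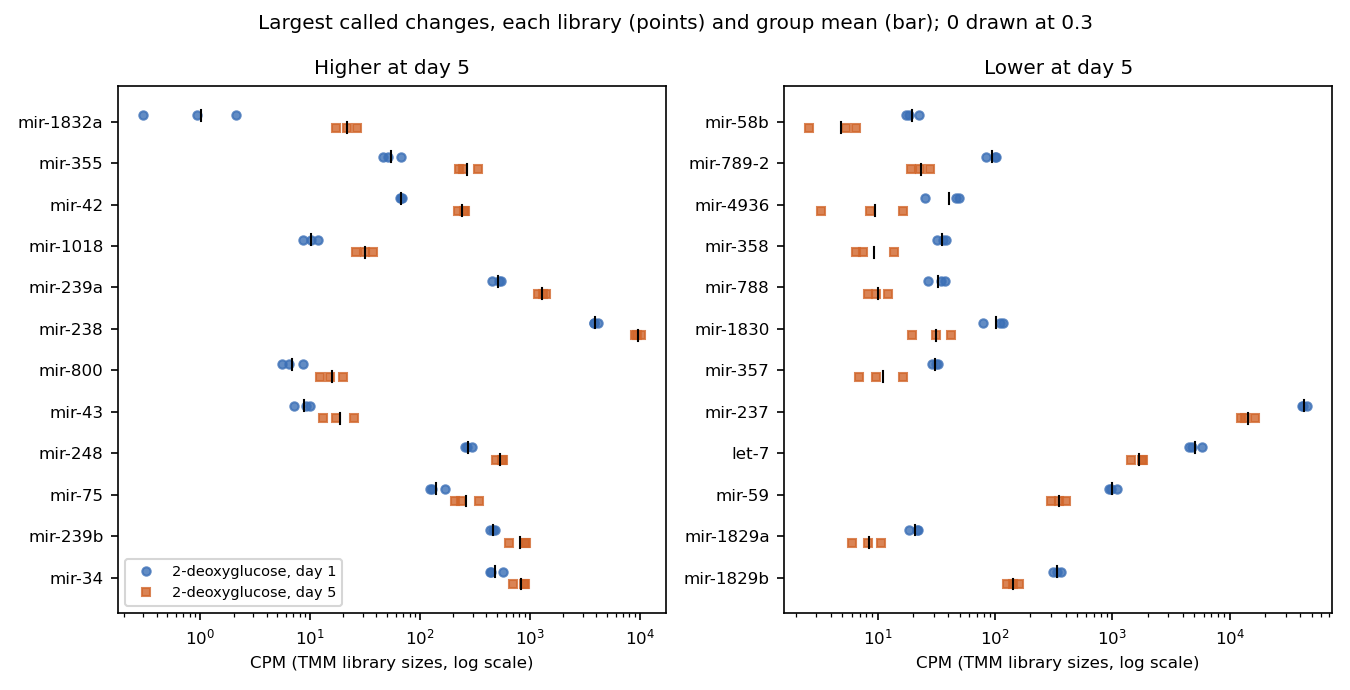
CPM on a log scale (horizontal axis) is shown for each of the 6 libraries, circles for day 1 and squares for day 5, with a bar at the group mean, for the 12 hairpins with the largest called rises (left) and the 12 with the largest called falls (right). A count of 0 is drawn at 0.3 CPM. In all 24 hairpins the 3 day 5 libraries lie on one side of the 3 day 1 libraries.

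The mir-58 family, worm relatives of the fly growth regulator bantam, held a large part of all counts. Of its 5 hairpins among the 130, 3 rose, 1 fell and mir-81 did not pass, beside 22.7% higher and 22% lower over all fitted. The summed level of the 5 was 281862 to 335843 CPM at day 1 and 379271 to 460204 CPM at day 5. mir-82 was the most abundant hairpin in all 6 libraries, with 148911, 125600.0 and 132337 CPM at day 1 and 159270.0, 221872 and 181729 CPM at day 5. The groups did not overlap, and the change was 0.47 ± 0.12 (edgeR adjusted p = 0.00215). mir-58a held 77625, 53469 and 58502 CPM at day 1 and 93562, 74235 and 85304 CPM at day 5, and rose by 0.42 ± 0.16 (edgeR adjusted p = 0.0329) with groups that overlapped. mir-58b, a scarce member of the family on chromosome IV (6660461 to 6660519 in WBcel235, outside protein-coding genes), went the other way, from 22.6, 17.3 and 18.4 CPM to 2.60, 6.59 and 5.38 CPM, a change of -2.12 ± 0.42 (edgeR adjusted p = 0.000285). mir-58b had 49, 19 and 26 counts at day 1 and 3, 4 and 5 at day 5, the latter close to the limit of detection. It entered the set of 130 through its day 1 counts alone. The rise of mir-82 was not called without day 1 library 2 (0.32) or 3 (0.38), nor that of mir-58a without day 1 library 2 (0.20) or 3 (0.28) or day 5 library 1 (0.34) or 3 (0.41). Both were lost in a fit of the 6 libraries alone (0.43 for mir-82, 0.38 for mir-58a), and mir-58a also with total counts (0.18).

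The share of counts in the leading hairpins was higher in every day 5 library than in any day 1 library. The 5 most abundant hairpins of each library took 50.1% to 50.9% of its counts at day 1 and 55.6% to 58.3% at day 5, a difference of 6.22 percentage points (exact two-sided permutation test, p = 0.10, the smallest that 3 against 3 libraries allow, so this test could not reach 0.05). Of the 33 hairpins with a mean of 3919 CPM or more, 13 rose and 4 fell, beside 22.7% and 22% of all hairpins fitted. Those 13 count mir-44 and mir-45, which share reads, separately, and with total-count scaling 5 of the 13 rises and all 4 falls kept their call. Of the 33 with a mean of 38.3 CPM or less, 6 rose and 9 fell, beside the same shares. The difference by abundance was not tested. mir-72, a relative of human miR-31 and also among the 8 most abundant hairpins, held 34512, 28364 and 27223 CPM at day 1 and 28926, 51314 and 45151 CPM at day 5. It rose by 0.48 ± 0.15 with overlapping groups, and lost its call with total counts (0.22), with lane as a factor (0.35), in a fit of the 6 libraries alone (0.44) and without day 1 library 2 (0.34) or 3 (0.34) or day 5 library 2 (0.30) or 3 (0.42).

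Of the 8 hairpins of the mir-35 family, which oocytes and embryos inside the worm carry, 3 rose and 5 did not pass. The share called higher over all hairpins fitted was 22.7%. The 8 hairpins changed by -0.023 to 1.85, with a median of 0.39. Their summed level was 108669 to 138183 CPM at day 1 and 151095 to 164933 CPM at day 5, so the groups did not overlap. In whole worms, a change in the number of cells or eggs and a change of RNA per cell cannot be told apart. mir-35 held 37974, 30650.3 and 27524 CPM at day 1 and 53268, 53783 and 51022 CPM at day 5, a change of 0.72 ± 0.18 (edgeR adjusted p = 0.00185). The most abundant member, mir-40, held 80145, 67703 and 65917 CPM at day 1 and 76694, 90685 and 83873 CPM at day 5, with groups that overlapped and a change of 0.23 ± 0.16 that did not pass. mir-37, with 10344, 7477 and 7190.1 CPM at day 1 and 11090.0, 10474 and 11224 CPM at day 5, missed the threshold at 0.39 ± 0.19 although the groups did not overlap, and was called higher without day 1 library 1 (0.58). mir-36 rose by 0.40 ± 0.15 with overlapping groups, a call that was lost with total counts (0.16) and without day 1 library 2 (0.27) or 3 (0.26) or day 5 library 1 (0.16); that of mir-35 was lost without day 1 library 2 (0.59) or 3 (0.54).

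The member of this family that rose most, mir-42, is coded apart from the other 7, next to mir-43 and mir-44 on the plus strand of chromosome II. mir-42 (11889811 to 11889905) held 68.3, 67.3 and 65.2 CPM at day 1 and 257, 249 and 222 CPM at day 5. The rise of 1.85 ± 0.21 (edgeR adjusted p = 1.84e-07) kept its call in all 15 alternatives, and all day 5 libraries were at least 3.2 times any day 1 library. mir-43, 4 bases further on and with a different seed, held 9.23, 10.00 and 7.08 CPM at day 1 and 25.2, 13.2 and 17.2 CPM at day 5, a change of 1.14 ± 0.25 (edgeR adjusted p = 0.000702), and lost its call without day 5 library 1 (0.82). mir-44, 15 bases beyond mir-43, held 8125, 5979.7 and 6103 CPM at day 1 and 7958, 11076 and 10286 CPM at day 5. It changed by 0.54 ± 0.15, with overlapping groups, and lost its call with total counts (0.29) and without day 1 library 2 (0.36) or 3 (0.40). Reads of mir-44 and mir-45 could not be separated, since their counts differed by at most 2.16% in each of the 6 libraries, and mir-45 changed by 0.54 ± 0.15 and lost its call in the same settings (0.29, 0.36 and 0.40). Their seed relative mir-61, which acts on Notch signalling in the vulva, moved the other way, from 8918, 6207 and 6665 CPM to 4074, 6064 and 5618 CPM, a change of -0.47 ± 0.15 that was lost without day 1 library 1 (-0.29) or day 5 library 1 (-0.31). The 3 measured hairpins of the mir-44 family, which is linked to sperm, summed to 18178 to 25221 CPM at day 1 and 20166 to 28226 CPM at day 5.

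All 10 listed hairpins that mark differentiated tissues were among the 130. Of these mir-786 rose and the other 9 did not pass, beside 22.7% higher and 22% lower over all fitted. mir-786, which intestinal cells need for the rhythm of defecation, held 370.0, 325 and 319 CPM at day 1 and 437, 575 and 594 CPM at day 5, a change of 0.66 ± 0.15 (edgeR adjusted p = 0.000865). Its neighbour mir-240, 32 bases away on the X chromosome, did not pass. Muscle mir-1 held 656, 448 and 602 CPM at day 1 and 581, 278 and 495 CPM at day 5, with overlapping groups and a change of -0.32 ± 0.20; it was called lower with total counts (-0.56), without day 1 library 2 (-0.58) and without day 5 library 1 (-0.55). Intestinal mir-60 held 2014, 2230.5 and 2172 CPM at day 1 and 3767, 988 and 2237 CPM at day 5. The day 5 values of mir-60 lay on both sides of the day 1 values and ranged more widely, and its change of 0.13 ± 0.35 did not pass. Neuronal lsy-6, which sets the left-right difference of the ASE taste neurons, held 21.7, 22.7 and 23.4 CPM at day 1 and 11.3, 14.8 and 18.3 CPM at day 5. These values rest on 9 to 47 counts per library, and although the groups did not overlap the change of -0.62 ± 0.30 did not pass; it was called with total counts (-0.86). The summed level of the 10 hairpins was 115636 to 139611 CPM at day 1 and 132006 to 184729 CPM at day 5, most of it mir-228, which held 154443 CPM in day 5 library 1.

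The mir-51 family, related to miR-100 and needed in embryos, had none of its 6 hairpins past the threshold, beside 44.7% of all hairpins fitted. Their changes ran from -0.46 to 0.30. mir-52, with the lowest of these changes, held 6165, 5805 and 6068 CPM at day 1 and 5420.1, 4011 and 3722 CPM at day 5, without overlap, and was called lower with total counts (-0.70), in limma-voom (-0.47), in a fit of the 6 libraries alone (-0.50) and without day 1 library 2 (-0.59) or day 5 library 1 (-0.64). In the mir-64 cluster 1 of 4 rose, mir-66, from 3828, 3765 and 3654 CPM to 5530.3, 4991 and 5170.3 CPM (0.48 ± 0.11), and its call was lost with total counts (0.23). In the mir-72 family, mir-72 was the one of 3 that rose. Of the 4 seed relatives of mir-2, mir-43 rose, mir-250 fell by 0.72 on the log2 scale, and mir-2 and mir-797 did not pass; mir-797 (-1.09 ± 0.49) was called lower without day 1 library 3 (-1.41) and with total counts (-1.31).

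The largest rises included hairpins with few counts. mir-1832a, in an intron of the splicing factor gene rsp-8 on chromosome III (11829248 to 11829311), had 2, 0 and 3 counts at day 1 and 25, 16 and 16 at day 5. It was close to the limit of detection at day 1 and was the only hairpin to enter the set through day 5 counts alone; its fitted change of 4.20 ± 0.56 (edgeR adjusted p = 2.27e-06) depends on those few counts. mir-355, outside protein-coding genes on chromosome II (11833536 to 11833645), had the largest rise among hairpins above 50 CPM. It held 67.4, 45.4 and 51.0 CPM at day 1 and 244, 227 and 333 CPM at day 5, a change of 2.27 ± 0.16 (edgeR adjusted p = 2.98e-10), and every day 5 library was at least 3.3 times any day 1 library. mir-1018, on the X chromosome (1879458 to 1879513), rose from 10.2, 11.8 and 8.50 CPM to 37.3, 31.3 and 25.8 CPM (1.65 ± 0.25). mir-248, also X-linked, held 297, 258 and 266 CPM at day 1 and 553, 487 and 572 CPM at day 5, and rose by 0.97 ± 0.12. mir-75, X-linked as well, held 168, 122 and 127 CPM at day 1 and 343, 237 and 209 CPM at day 5, and rose by 0.92 ± 0.22. All 5 kept their calls in all 15 alternatives. For mir-1832a every alternative drew on the same few counts, and its day 5 counts had placed it in the set, so its kept call adds no support. mir-800, at 5.54 to 8.50 CPM at day 1 and 12.1 to 19.8 CPM at day 5, rose by 1.16 ± 0.45, and its call was lost in 7 of 15 alternatives, among them leaving out day 1 library 1 (0.99), 2 (1.03) or 3 (1.27) and day 5 library 2 (1.01) or 3 (1.16), and with lane as a factor (0.43).

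Among the falls beside the timing hairpins, mir-59, on chromosome IV (11309154 to 11309253), was the most abundant of those with a log2 change below -1.2. It held 1099, 932 and 981 CPM at day 1 and 402, 303 and 350.0 CPM at day 5, a change of -1.51 ± 0.13 (edgeR adjusted p = 1.63e-09). mir-789-2 and mir-789-1, which may share reads, both fell. mir-789-2 held 99.7, 83.6 and 101 CPM at day 1 and 19.1, 23.1 and 28.0 CPM at day 5 (-2.03 ± 0.19). mir-789-1 held 106, 89.1 and 77.9 CPM at day 1 and 39.0, 34.6 and 49.5 CPM at day 5 (-1.14 ± 0.23). mir-1830, in an intron of the purine synthesis gene paic-1, fell from 78.9, 117 and 110.5 CPM to 42.5, 19.8 and 31.2 CPM (-1.63 ± 0.25). mir-357 and mir-358, 206 bases apart within an intron of symk-1 on its opposite strand, fell together, by -1.61 ± 0.28 and -1.82 ± 0.28. They had 71, 32 and 44 counts at day 1 and 8, 10 and 9 at day 5, and 78, 42 and 45 counts at day 1 and 16, 4 and 7 at day 5, respectively. mir-4936 (-1.88 ± 0.41) and mir-788 (-1.63 ± 0.37) were as scarce, with 55, 51 and 70 counts at day 1 and 19, 2 and 8 at day 5, and 58, 41 and 49 counts at day 1 and 14, 5 and 9 at day 5. For these 4 hairpins the CPM values of the ages did not overlap. All 8 falls, from mir-59 to mir-788, were called in all 15 alternatives.

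The 3 mir-1829 hairpins, in introns of different X-linked genes, all fell. mir-1829b, in an intron of F20D1.3 on the X chromosome (14977119 to 14977178), held 364, 336 and 310.2 CPM at day 1 and 143, 127 and 159 CPM at day 5, a change of -1.23 ± 0.12 (edgeR adjusted p = 2.97e-08). mir-1829a, in an intron of gas-1 (15588311 to 15588370), the gene of a complex I subunit, changed by -1.33 ± 0.32, and mir-1829c, in an intron of piki-1 (15236362 to 15236423), changed by -0.66 ± 0.15. None of the 3 overlapped between ages, and all 3 were called in all 15 alternatives.

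The other falls were mostly smaller. mir-235, the worm miR-92, which holds larvae in arrest when food is absent, went from 15969, 14375 and 13597 CPM to 6177, 11386 and 8848 CPM (-0.74 ± 0.19). mir-85 changed by -0.67 ± 0.19, mir-230 by -0.75 ± 0.15, mir-86 by -0.59 ± 0.12 and mir-243 by -0.53 ± 0.12, and all 5 of these kept their calls in all 15 alternatives. mir-1817 (-1.12) and mir-2212 (-1.11) fell from means of 23.9 and 45.6 CPM at day 1. The falls of mir-4813 (-0.71), mir-785 (-0.52), mir-50 (-0.42) and mir-76 (-0.41) were less stable. The call of mir-4813 was lost with lane as a factor (-0.59). With the TMM step free of the most abundant hairpins mir-785 (-0.34), mir-50 (-0.26) and mir-76 (-0.24) were not called. The latter pair was also lost without a filter on low counts (-0.36 and -0.34) and with mir-45 left out (-0.34 and -0.33). The call of mir-76 was lost in 9 of 15 alternatives, among them DESeq2 size factors (-0.37), the DESeq2 test (-0.37) and limma-voom (-0.40). Calls were lost without day 1 library 1 for mir-4813 (-0.54), mir-785 (-0.31) and mir-76 (-0.22), without day 5 library 1 for mir-785 (-0.36) and mir-76 (-0.32), without day 5 library 2 for mir-50 (-0.33) and mir-76 (-0.44), and without day 5 library 3 for mir-2212 (-0.88).

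The other rises were mir-77 (0.54), mir-63 (0.39), mir-249 (0.40), mir-231 (0.63) and mir-784 (0.66). None of these 5 was called in every alternative. Without day 1 library 2 all 5 lost their call (0.35, 0.26, 0.29, 0.45 and 0.55), and without day 1 library 3 the last 4 did (0.31, 0.30, 0.58 and 0.65). With total-count scaling the last 4 lost their call as well (0.15, 0.16, 0.40 and 0.43). In a fit of the 6 libraries alone mir-249 (0.36), mir-231 (0.60) and mir-784 (0.62) were not called. mir-249 was also lost with lane as a factor (0.35), mir-231 without day 5 library 1 (0.33), and mir-784 without day 1 library 1 (0.58) or day 5 library 1 (0.59) or 3 (0.64).

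Neighbouring hairpins did not always move alike. Within 10000 bases on the same strand, 45 of the 130 hairpins fell into 17 clusters. Calls went in a single direction in 12 clusters and in both in 1, that of mir-48 and mir-241, while 4 held no call. The 12 include clusters with only 1 called hairpin, such as those of mir-71, mir-66 and mir-75, which could not show calls in both directions. mir-80 and mir-238, 1960 bases apart on chromosome III, both rose, as did mir-42, mir-43 and mir-44. Reads of mir-44 could not be separated from those of mir-45, which lies on the minus strand outside that cluster. The rise of mir-44 therefore cannot be assigned to the cluster of mir-42. mir-250 and mir-61, 44 bases apart on chromosome V, both fell, as did mir-357 and mir-358. In the mir-35 cluster the first 2 of 7 hairpins were called, and mir-75 rose beside mir-73 and mir-74, which did not pass. By chromosome, set beside 22.7% higher and 22% lower over all hairpins fitted, 1 of 13 hairpins on chromosome I rose and 4 fell, and 9 of 23 on II rose and 3 fell. On III 5 of 18 rose and 4 fell, on IV 1 of 23 rose and 5 fell, on V 1 of 11 rose and 5 fell, and on X 13 of 42 rose and 9 fell. No difference between chromosomes was tested. Beside the same 22.7% higher and 22% lower, of 76 hairpins outside protein-coding genes 23 rose and 15 fell, and of 48 within introns 7 rose and 12 fell. The difference between these places was not tested either.

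**Figure D3:**
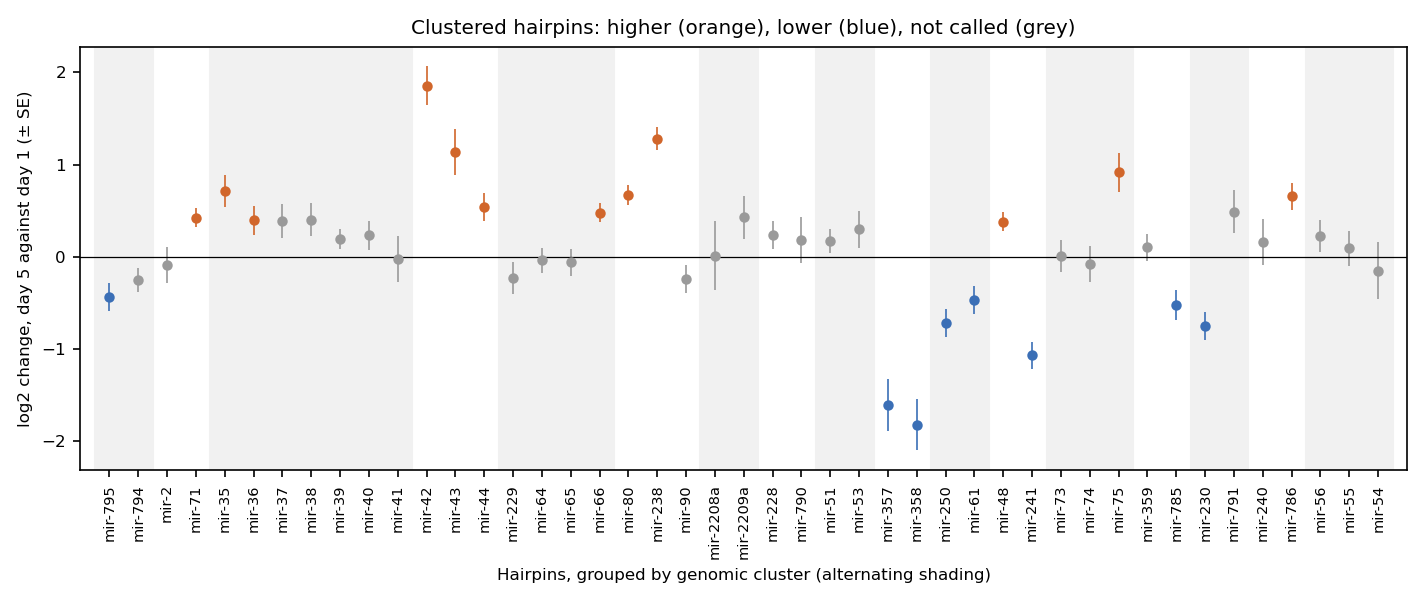
The log2 change from day 1 to day 5 with its standard error (vertical axis) is shown for the 45 hairpins in 17 genomic clusters, ordered along each strand and shaded by cluster. The 2 hairpins of the mir-48 and mir-241 cluster lie on opposite sides of 0. In the other clusters with at least 2 called hairpins these lie on one side.

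The same interval in rotenone worms, which shared no library with this comparison, gave 64 calls among the 141 hairpins (45.4%), 32 rises and 26 falls among the 130. In both compounds 22 of the 130 rose, 73.3% of the 30 rises with 2-deoxyglucose and 68.8% of the 32 with rotenone, and 20 fell, 66.7% of the 30 falls and 76.9% of the 26; 1, mir-43, was called in opposite directions. The difference of the day 5 changes was called for 8 of the 130 hairpins, beside 6.38% of all fitted. The change, not the level, was higher with 2-deoxyglucose for 6, beside 4.96%, and lower for 2, beside 1.42%. For mir-42 the difference was 1.80 ± 0.28 (edgeR adjusted p = 0.000102) and for mir-43 1.97 ± 0.31 (edgeR adjusted p = 0.000102), 2-deoxyglucose minus rotenone. In rotenone worms mir-42 held 207, 351 and 242 CPM at day 1 and 286, 334 and 210.2 CPM at day 5, and mir-43 held 38.9, 34.0 and 33.9 CPM at day 1 and 16.6, 21.5 and 21.9 CPM at day 5. At day 1 all 2-deoxyglucose libraries lay below all rotenone libraries for both hairpins, and at day 5 the compounds overlapped.

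For mir-1829b the difference was -0.97 ± 0.17 (edgeR adjusted p = 0.000371): rotenone worms held 322, 354 and 325 CPM at day 1 and 236, 313 and 286 CPM at day 5. Here the day 1 values of the compounds overlapped, and at day 5 the 2-deoxyglucose libraries were all lower. mir-788 differed by -2.15 ± 0.47 (edgeR adjusted p = 0.00476), with 25.9, 16.1 and 25.9 CPM at day 1 and 26.3, 26.3 and 48.5 CPM at day 5 in rotenone worms, all day 5 values there being above the 8.23 to 12.1 CPM of 2-deoxyglucose. At day 1 the order was the reverse, with all 2-deoxyglucose libraries above all rotenone libraries for mir-788. mir-1018 differed by 1.25 ± 0.32 (edgeR adjusted p = 0.019), with 17.0, 22.9 and 20.7 CPM at day 1 and 36.0, 23.1 and 20.0 CPM at day 5 in rotenone worms. mir-44 differed by 0.77 ± 0.21 (edgeR adjusted p = 0.0311), with its copy mir-45 at 0.73, and mir-4813, in an exon of idhg-1, by 1.00 ± 0.28 (edgeR adjusted p = 0.0311). mir-4813 was called lower in both compounds, with a change of -1.70 ± 0.18 in rotenone. With lane as a factor the differences of mir-42 and mir-43 were called (edgeR adjusted p = 0.00487 and 0.00263), with values of 1.71 and 2.45, and the other 6 were not. Without a call, the value with lane was 1.13 for mir-4813, above its value without lane, -0.78 for mir-1829b, -1.51 for mir-788, 0.91 for mir-1018, 0.49 for mir-44 and 0.46 for mir-45. mir-42 and mir-43 kept their calls in all 21 alternatives, mir-1829b and mir-788 in 20, mir-1018 in 14, and mir-44 and mir-4813 in 11; the edgeR adjusted p over these alternatives reached 0.207 for mir-1018, 0.267 for mir-44 and 0.131 for mir-4813.

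The calls of mir-1018, mir-44 and mir-4813 hinged on single libraries. mir-1018 was lost without 2-deoxyglucose day 1 library 2 (1.31) or 3 (1.15), day 5 library 1 (1.08), or rotenone day 5 library 2 (1.14) or 3 (1.04). mir-44 was lost without any of 8 of the 12 libraries, the exceptions being rotenone day 1 library 2, rotenone day 5 library 1, 2-deoxyglucose day 1 library 1 and day 5 library 1, with values from 0.61 to 0.77. mir-4813 was likewise lost without any of 8, the exceptions being rotenone day 1 library 3, rotenone day 5 library 3 and 2-deoxyglucose day 1 libraries 1 and 2, with values from 0.84 to 1.02.

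**Figure D4:**
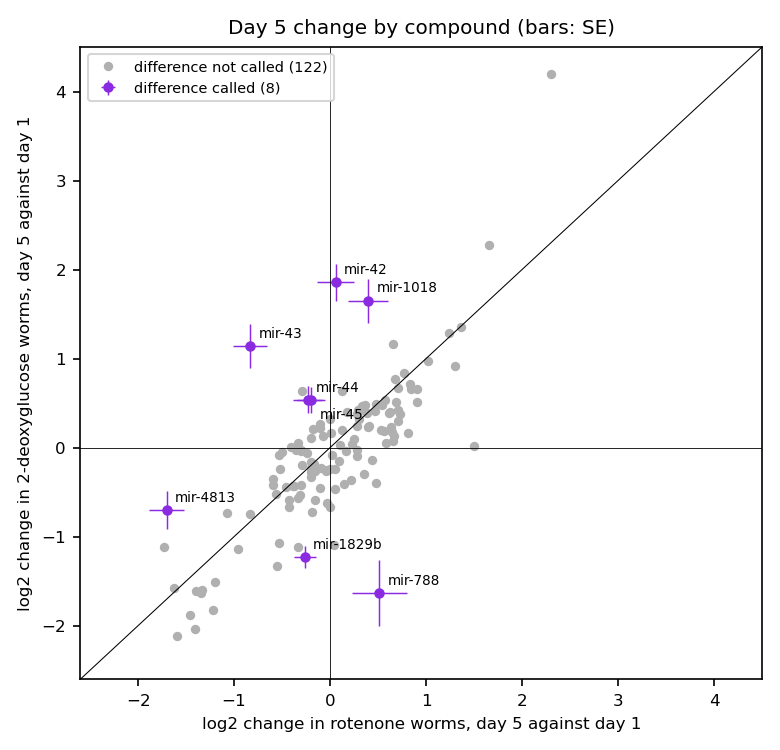
The log2 change from day 1 to day 5 in 2-deoxyglucose worms (vertical axis) is plotted against that in rotenone worms (horizontal axis) for the 130 hairpins, with the line of equal change. The 8 hairpins whose difference was called carry standard errors and names, with mir-42, mir-43 and mir-1018 above the line and mir-788 and mir-1829b below it.

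Levels at days 10 and 20 in 2-deoxyglucose worms went on past day 5 for some hairpins and turned back for others. let-7 went on to 764, 774 and 774 CPM at day 10 and 322 and 265 CPM at day 20, and mir-237 to 4365, 4336 and 4679.8 CPM and 1970.1 and 2219 CPM, each age below the one before. mir-34 stood at 1819, 2001 and 1924 CPM at day 10 and 2940.2 and 3128 CPM at day 20, and mir-42 at 476, 439 and 551 CPM and 715 and 794 CPM, each age above the one before. mir-71 and mir-80 were highest at day 5. mir-71 held 5474, 5636 and 5779 CPM at day 10 and 2379 and 2514 CPM at day 20, all below its day 1 libraries, and mir-80 held 77854, 74932 and 81926 CPM and 50614 and 50481 CPM. mir-355 lay within its day 5 range at both later ages, with 282, 277 and 280.4 CPM and 252 and 256 CPM, and mir-238 stayed above its day 1 libraries, with 7873, 8181 and 10116 CPM and 9228 and 8817 CPM. mir-75 stood at 244, 212 and 286 CPM at day 10 and, at day 20, at 93.1 and 96.0 CPM, below its day 1 values. mir-1829b stood at 217, 225 and 220.3 CPM at day 10, between its day 1 and day 5 values, and at 129.7 and 123 CPM at day 20. These levels are a description; changes after day 5 were not tested here.

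**Figure D5:**
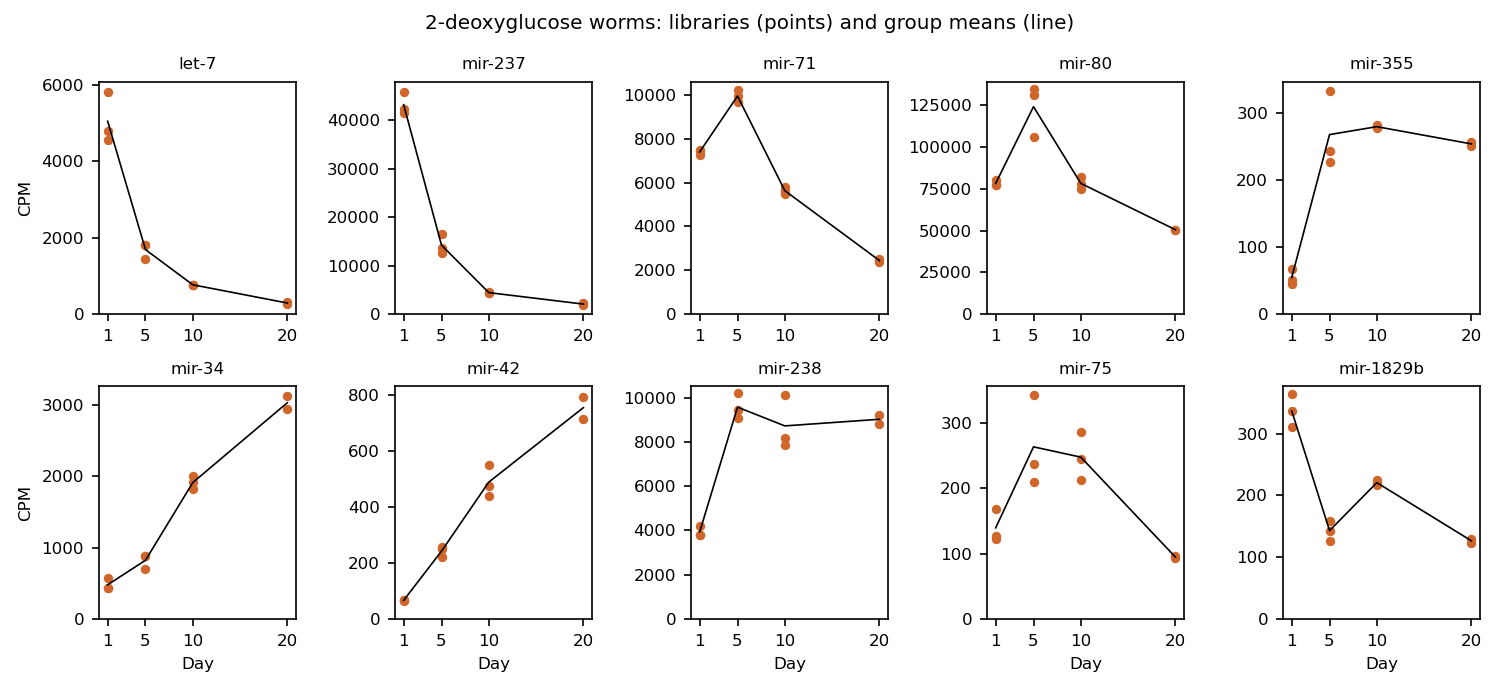
CPM of each library (points) and group means (line) against age in days is shown for 10 hairpins in 2-deoxyglucose worms, with 3 libraries at days 1, 5 and 10 and 2 at day 20. let-7 and mir-237 are lower and mir-34 and mir-42 higher at each later age, and mir-71 and mir-80 are highest at day 5.

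The count threshold set the edge of the hairpins described. All 6 libraries passed it for 108 of the 130, and exactly 3 libraries for 6 (mir-1832a, mir-4816, mir-4937, mir-58b, mir-797 and mir-798), of which 3 passed in day 1 libraries alone and 1 in day 5 libraries alone. Just outside, 6 hairpins reached 10 counts in 2 libraries. Among them mir-799 had 30, 9 and 19 counts at day 1 and 3, 4 and 4 at day 5, and mir-8199 had 2, 1 and 3 counts at day 1 and 16, 4 and 14 at day 5. A hairpin that entered through a single age had to be high at that age.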

How the data were processed

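Small RNA was sequenced from whole worms; TruSeq small RNA kits were used, per the labels' protocols. The submitters' processing notes name SAMtools 1.3.1-9, BWA 0.7.12-r1039, Trimmomatic 0.36 and CASAVA 1.8.4 without roles. The sources used here do not state a genome build, strand use or how reads matching several hairpins were treated. The deposited table holds raw counts made by the authors for 250 hairpins in 22 libraries. Library numbers follow record order and pair nothing.

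The tests used edgeR 4.0.16 (R 4.3.3). Hairpins kept by filterByExpr (minimum count 10, minimum total 15), which included all 130 described, left 141 in a single TMM-scaled model of the 8 groups. Contrasts were tested with the quasi-likelihood F test with robust dispersions, adjusted over all 141; SE was taken as the size of the log2 change over the root of F. The analysis was checked on simulated counts. Alternatives used DESeq2 1.42.0 and limma 3.58.1, among others. The count of 3 libraries per group limits precision. Positions are from the Ensembl WBcel235 annotation, matched by name.

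Named hairpins are the 12 largest called changes in each direction, the 8 most abundant, the 6 smallest adjusted p for the difference between compounds, and list members; all other called hairpins, and mir-37, mir-52, mir-797, mir-799 and mir-8199, were added after their values were seen. The hairpins, lists and tests were chosen with earlier results of these data known.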

Additional observations from a re-analysis of the deposited data

Results flagged for a closer look

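The day 5 change differed between the compounds, by the test of the difference itself, for 8 hairpins. On the log2 scale, 2-deoxyglucose minus rotenone, the differences were 1.80 for mir-42, 1.97 for mir-43, -0.97 for mir-1829b, -2.15 for mir-788, 1.25 for mir-1018, 0.77 for mir-44, 0.73 for mir-45, which shares reads with mir-44, and 1.00 for mir-4813. With lane as a factor the first 2 were called. The other 6 kept their direction without a call, at 1.13 for mir-4813, -0.78 for mir-1829b, -1.51 for mir-788, 0.91 for mir-1018, 0.49 for mir-44 and 0.46 for mir-45.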

How the results depend on the processing

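No paired analysis was possible because the labels carry no replicate numbers. Calls among the 130 hairpins numbered 60, and 48 to 59 with 1 library left out, with 15 to 32 rises and 24 to 36 falls. With total-count scaling the rises fell to 16; the other scalings, tests and filters kept the counts of calls, rises and falls within 1.5 times. The difference between compounds was called for 8 hairpins, for 2 with lane as a factor, for 5 in a fit of the 12 day 1 and day 5 libraries alone, and for 4 to 10 with 1 library left out; the cause was not tested. Changes that had not passed turned below 0 with total counts for mir-228 (-0.0043), mir-40 (-0.015), mir-246 (-0.22) and mir-60 (-0.10), for mir-60 in limma-voom (-0.068) and for mir-246 in the fit of 6 libraries (-0.014). With 1 library left out mir-228 ranged from -0.017 to 0.37, mir-246 from -0.11 to 0.11 and mir-60 from -0.40 to 0.49. A floor of 3 counts was worth up to 4.94 CPM, in day 5 library 2, so the values of hairpins near it rest on few counts.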
